A study of Mus musculus with 4 samples.

Results

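The genes described here are 9 factors that mark messenger RNAs for destruction in the mouse heart, taken by symbol from the 23420 genes of the deposited count table. They are Zfp36, Zfp36l1 and Zfp36l2 (AU-rich element binding proteins), Btg1, Btg2, Btg3, Tob1 and Tob2 (BTG/TOB adaptors of deadenylation), and the RNase Zc3h12a. Zfp36 and Btg2 were chosen by a measured value, their wide spread between these hearts, so that spread is described without a test. Of the 9 genes, 8 had counts, and each of those 8 exceeded 8 CPM in every library, where CPM is a count scaled to 1000000 gene counts. Btg3 had 0 counts in all 4 libraries.

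The series holds 4 libraries of polyadenylated RNA, all labelled as hearts of wild-type C57BL/6J mice, male and 12 weeks old, with no treated or mutant group. The tissue label names the heart as a whole, but per the labels' protocols the RNA came from the tip of the ventricles. Markers of heart muscle were abundant, since 10 marker genes of cardiomyocytes summed to between 106160 and 117388 CPM. Each library held 10523709 to 15359296 reads assigned to genes, and 11.9 to 14.1% of these fell on Rn45s, the ribosomal RNA precursor.

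Libraries 2 and 3 went against their sex label. Xist, the RNA of the inactive X chromosome in females, had 5, 1897, 1806 and 19 counts in libraries 1 to 4. Ddx3y, a gene of the Y chromosome, had 341, 0, 1 and 437 counts. Results on spread are therefore given for all 4 libraries and again for libraries 1 and 4 alone. The labels do not state that every library is a separate animal, so a p-value here measures a spread between samples that may in part be technical. In bulk tissue, fewer cells of a type and less RNA per cell cannot be told apart.

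As background, most messenger RNAs decay by first losing their poly(A) tail, a step carried out by the CCR4-NOT complex and then followed by decapping or by digestion in the exosome. The Zfp36 proteins bind AU-rich words in 3′ untranslated regions (UTRs) through a pair of CCCH zinc fingers and bring CCR4-NOT to the message. BTG and TOB proteins bind the deadenylases Cnot7 and Cnot8 through their conserved N-terminal domain, and the TOB proteins also bind poly(A)-binding protein. Zc3h12a, known as Regnase-1, cuts stem-loops in the messages of inflammatory genes. Zfp36 and Btg2 are known as immediate early genes, whose own messages appear and vanish quickly after a stimulus.

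The messages of the Zfp36 genes themselves carry the AU-rich word that Zfp36 proteins recognise. The sites below show it in 5 detected genes of the list, as DNA letters of the transcript strand (GRCm38, GENCODE M21), each with 10 bases on either side and with every copy of TATTTAT in capitals.
Zfp36, chr7:28376952-28376978, minus strand: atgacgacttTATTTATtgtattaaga
Zfp36l1, chr12:80108168-80108194, minus strand: actgttggatTATTTATtttagaaatt
Zfp36l2, chr17:84184915-84184941, minus strand: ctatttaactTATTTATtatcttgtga
Btg2, chr1:134077250-134077276, minus strand: aatgaagagcTATTTATacatgttttt
Tob2, chr15:81849861-81849887, minus strand: atcacctgctTATTTATgtacgaggtt
The 3 Zfp36 family UTRs held 3 copies each of TATTTAT, read on the transcript strand and with overlaps counted. Btg2 and Tob2 had 1 copy, Btg3 had 2, and Btg1, Tob1 and Zc3h12a had 0. Among 11917 tested genes with an annotated 3′ UTR, 30.6% held the word. The longer TTATTTATT, which contains the shorter word, was found in 8.16% of those genes and in Zfp36, Zfp36l1 and Zfp36l2 among the 9. The pentamer ATTTA, contained in both, was present in all 9 genes and in 70.5% of tested genes. The Pumilio word TGTANATA, present in 26.9% of tested genes, was found in Btg1 alone of the 9. Such words are counts of letters and were not tested for binding.

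Zfp36, or tristetraprolin, is the founding AU-rich binding protein and lies on chromosome 7 (28376784 to 28380253, minus strand). Counted 1133, 338, 424 and 1085 times over libraries 1 to 4, it stood at 78.6, 24.3, 40.3 and 70.6 CPM. Libraries 1 and 4 were high, library 3 was intermediate and library 2 was lowest, 3.24-fold under library 1. The mean was 53.5 ± 25.5 CPM (SD, n = 4). Exact 95% Poisson limits, which cover counting error only, ran from 66.5 to 75.0 CPM for library 4 and from 36.5 to 44.3 CPM for library 3, so counting error does not span that gap. Between libraries 1 and 4 the ratio was 1.11-fold.

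Its 2 relatives were steadier. Zfp36l1, which destabilises growth factor messages such as Vegfa, had 56.7, 67.7, 50.7 and 49.4 CPM, a mean of 56.1 ± 8.35 CPM (SD, n = 4). Library 2, the lowest for Zfp36, was the highest for Zfp36l1. Zfp36l2, best known for roles in oocytes and lymphocytes, had 30.7, 26.5, 18.7 and 28.3 CPM, with library 3 lowest and the other libraries close together. Its mean was 26.1 ± 5.20 CPM (SD, n = 4). Because the libraries keep no strand, reads of Zfp36l1 cannot be told from those of the antisense gene Gm26669, which covers 55.9% of its exon bases. Zfp36l1 also shares 94.7% of the bases over a stretch of 903 with its pseudogene Zfp36l1-ps, so its level is uncertain.

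The ratio of Zfp36 to its relatives therefore differed between libraries, which follows from the choice of Zfp36 for its spread and is only described. Per kilobase of merged exons, the ratio of Zfp36 to Zfp36l1 was 1.19, 0.309, 0.684 and 1.23 in libraries 1 to 4. Zfp36 was the more abundant of the pair in libraries 1 and 4 and the less abundant in libraries 2 and 3. The ratio of Zfp36 to Zfp36l2 was 2.60, 0.932, 2.19 and 2.54. Zfp36 was below Zfp36l2 in library 2 alone on this scale, and above it in 4 of 4 libraries when levels were divided by the longest transcript.

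Tob2 was the most abundant of the 9 genes per gene, at rank 984 of all genes by mean CPM. It encodes a close relative of Tob1 and lies on chromosome 15 (81848272 to 81858796, minus strand). Its 2712, 1067, 1121 and 2757 counts gave 188, 76.7, 107 and 179.5 CPM over the 4 libraries, with a mean of 138 ± 54.8 CPM (SD, n = 4). Libraries 1 and 4 lay together at the top, 1.05-fold apart, and library 1 was 2.45-fold above library 2. The Poisson limits of library 4, 173 to 186 CPM, did not meet those of library 3, 100.4 to 113 CPM. Tob1, which restrains proliferation and also binds CCR4-NOT, had 47.1, 46.2, 37.0 and 46.8 CPM. Libraries 1, 2 and 4 agreed within counting error and library 3 was lower. The mean was 44.3 ± 4.89 CPM (SD, n = 4).

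Btg2, induced by growth factors and by p53, lies on chromosome 1 (134075170 to 134079120, minus strand). Its counts of 966, 400, 333 and 1098 came to 67.0, 28.7, 31.6 and 71.5 CPM, with a mean of 49.7 ± 22.7 CPM (SD, n = 4). Libraries 2 and 3 were nearly level, and library 4 was 2.49-fold above library 2. Btg1, its closest relative and a factor that keeps lymphocytes quiescent, had 17.7, 18.2, 19.0 and 16.0 CPM, a mean of 17.7 ± 1.30 CPM (SD, n = 4). All 4 hearts were alike in Btg1, with Poisson limits that overlapped in every pair of libraries. Per kilobase, Btg2 exceeded Btg1 in each library, by 7.29, 3.03, 3.20 and 8.62-fold. Btg1 has a near-identical copy, Gm14519, at 98.7% identity over 312 bases, which could draw off some of its reads.

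Btg3, the remaining BTG gene on chromosome 16, was listed at 0. A count of 0 allows up to 3 counts, or 0.195 to 0.285 CPM depending on the library. A stretch of 756 bases of its transcript is identical, at 100%, to the processed pseudogene Gm7334, also at 0 counts. That stretch covers bases 217 to 972 of a transcript of 1414 bases, so it is only a part of the message. The gene Cxadr shares 17.3% of the exon bases of Btg3. Reads that align equally well in several places were kept apart in the files and made up 8.13 to 8.48% of listed reads. The cause of the 0 was not tested, and the 0 does not show that Btg3 was silent.

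Zc3h12a, on chromosome 4, was the least abundant detected gene of the 9 per gene. Its level was 11.2, 9.20, 8.08 and 10.7 CPM, a mean of 9.81 ± 1.45 CPM (SD, n = 4), with libraries 1 and 4 slightly above the others and limits that overlapped. Its counts were 162, 128, 85 and 165. Among its relatives, Zc3h12c was at a similar level, 11.9 ± 1.15 CPM (SD, n = 4), while Zc3h12b had 3, 7, 3 and 13 counts and Zc3h12d 4, 5, 5 and 10. Zfp36l3, a rodent-specific gene of the Zfp36 family, had 2, 0, 0 and 2 counts, and Btg4, the oocyte adaptor, had 0 counts in each.

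**Figure D1:**
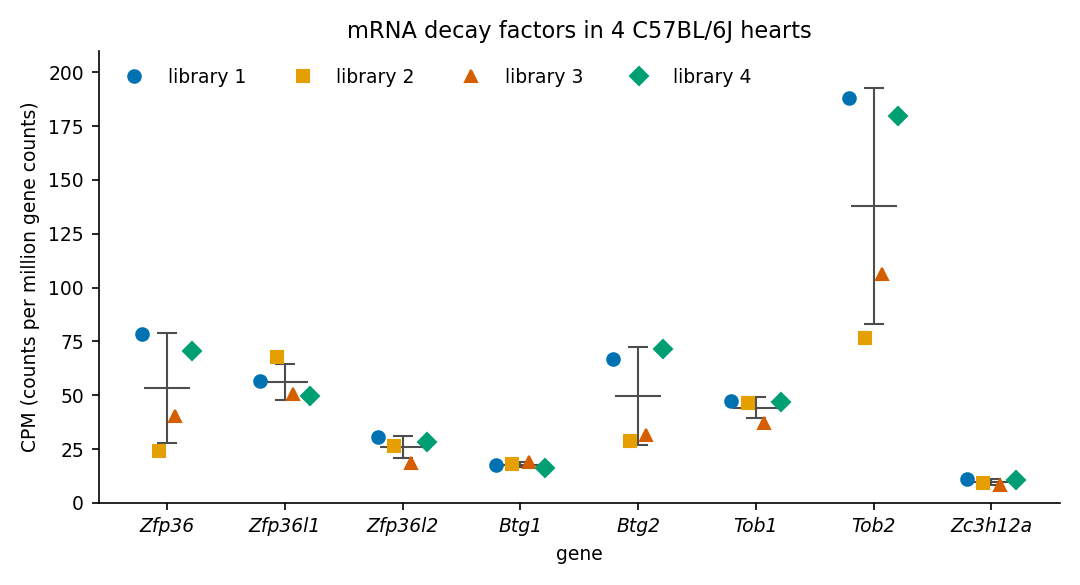
Level of the 8 detected decay factors in each library, in CPM (counts scaled to 1000000 gene counts, vertical axis) for each gene (horizontal axis). Markers are single libraries, and bars are the mean ± SD of 4. Tob2, Zfp36 and Btg2 sit high in libraries 1 and 4 and low in libraries 2 and 3, while the markers of Btg1 and Tob1 lie close together.

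In the plot of levels by gene, longer transcripts collect more reads, so the order of the genes was taken per kilobase of merged exons. On that scale the level was 20.7 ± 8.22 CPM per kilobase for Tob2, 19.3 ± 2.14 for Tob1, 18.8 ± 2.79 for Zfp36l1, 18.1 ± 8.26 for Btg2 and 15.4 ± 7.35 for Zfp36 (SD, n = 4 each). These 5 genes could not be ranked, since each neighbour was higher in 2 or 3 of the 4 libraries. Zfp36l2, below Zfp36 in 3 of 4 libraries, followed at 7.39 ± 1.47, then Zc3h12a at 3.41 ± 0.503 and Btg1 at 3.36 ± 0.246 CPM per kilobase. Of 7 neighbouring pairs, the step from Zfp36l2 down to Zc3h12a alone held in 4 of 4 libraries, at 2.15-fold. Its two-sided exact sign-flip permutation p was 0.125, the smallest that 4 libraries can give, and 0.583 after Benjamini-Hochberg adjustment over the 7 pairs. The remaining neighbours, Zc3h12a and Btg1, differed by less than their spread. Divided by the longest annotated transcript in place of merged exons, Tob2 stood at 33.2 ± 13.2 CPM per kilobase and above Tob1 in 3 of 4 libraries.

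The spread between libraries was compared with that of other genes of like abundance by the variance ratio, which is the quasi-dispersion of a gene in edgeR divided by the fitted trend. The ratio was 53.8 for Zfp36, 46.1 for Tob2 and 43.4 for Btg2. It was 5.72 for Zfp36l2, 4.47 for Zfp36l1, 2.09 for Tob1, 1.36 for Zc3h12a and 0.832 for Btg1. Across 12358 tested genes the median was 0.852, the 90th percentile 3.12 and the 99th percentile 15.5. Zfp36, Tob2 and Btg2 were above the 99th percentile, Zfp36l2 and Zfp36l1 lay between the 90th and the 99th, and the other 3 were below the 90th.

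Tob2, which was not put on the list for its spread, was called more variable (adjusted p = 0.0157, edgeR's quasi-likelihood fit with Benjamini-Hochberg adjustment over all tested genes). Of all tested genes 55, or 0.445%, were called at an adjusted p under 0.05, and they included 3 of the 8 tested decay factors. Of those 3, Zfp36 and Btg2 were chosen for this measure, so 1 of the 6 others was called. With a prior that was not robust the adjusted p of Tob2 was 0.106 (edgeR), and over the alternatives with all 4 libraries it ran from 3.8e-07 to 0.106. At an unadjusted p under 0.05, 6.0% of tested genes passed, and Zfp36l2, Zfp36l1 and Tob2 of the 6 did. Zfp36l2 and Zfp36l1 were not called after adjustment (adjusted p = 0.638 and 0.785, edgeR).

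**Figure D2:**
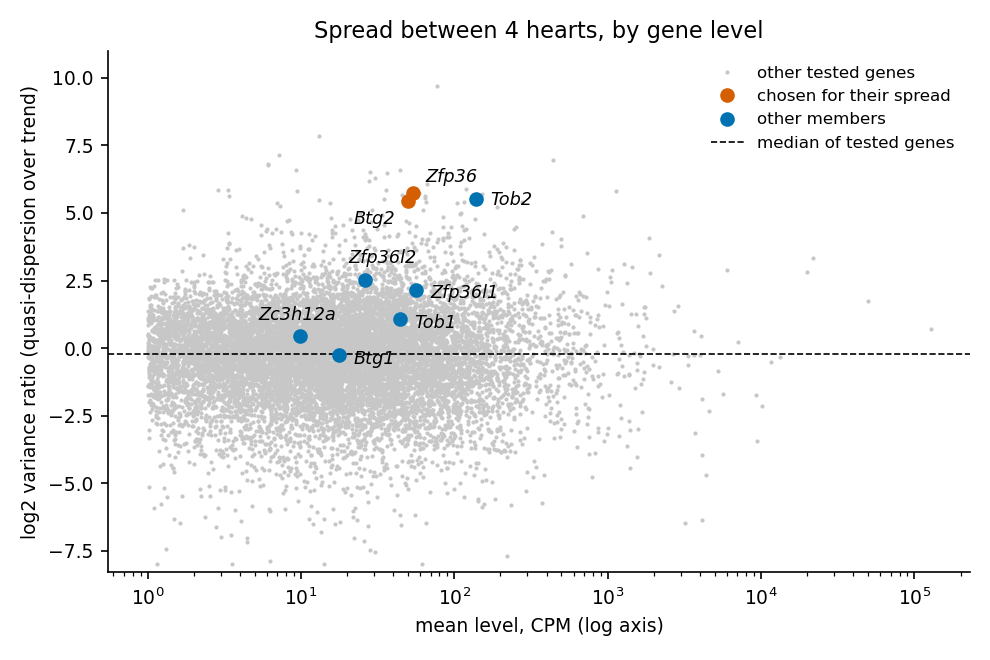
Spread between the 4 libraries (log2 variance ratio, vertical axis) against mean level (CPM, log axis) for tested genes. Grey points are other genes, orange points Zfp36 and Btg2, chosen for their spread, blue points the 6 other decay factors, and the dashed line is the median. Zfp36, Btg2 and Tob2 lie above 5 on the log2 axis, while Btg1 lies near the median.

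In the plot of spread against level, the 3 wide genes had mean levels between 49.7 and 138 CPM. Without libraries 2 and 3 the picture differed. Libraries 1 and 4 alone gave variance ratios of 3.95 for Zfp36, 1.34 for Tob2 and 0.843 for Btg2. Tob2 was not called there (adjusted p = 0.984, edgeR). A fit on 2 libraries has little power and called 6 of 12345 genes, so the missing call for Tob2 says little. Between those 2 libraries all 8 detected genes were within 1.01 to 1.15-fold. Over all counted genes libraries 1 and 4 were also the most alike pair (chi-square per degree of freedom 2.22, against 6.81 to 12.6). In each of the 3 genes both of these libraries were above both libraries 2 and 3. Libraries 2 and 3 also differed from each other, by 1.66-fold in Zfp36, 1.39-fold in Tob2 and 1.10-fold in Btg2. The split between the pairs also divided Xist and Ddx3y, and the part of the sex-linked difference in these values was not tested.

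By rank alone, direction was shared by more genes than the 3. Libraries 1 and 4 were the highest pair for 6 of the 8 detected decay factors, namely Zfp36, Zfp36l2, Btg2, Tob1, Tob2 and Zc3h12a, against 23.7% of all tested genes. Leaving out Zfp36 and Btg2, which were chosen for their spread over these libraries, the count was 4 of 6. For Zfp36l2, Tob1 and Zc3h12a the ranks rested on small gaps. Their Poisson limits for libraries 1 and 4 overlapped those of library 2. In Zfp36l2 the limits were 25.7 to 31.1 CPM for library 4 and 23.9 to 29.4 CPM for library 2. With the size factors of DESeq2 and with upper-quartile factors Tob1 left the set of 6, so that 5 remained. Btg1 was highest in libraries 2 and 3, and Zfp36l1 in libraries 2 and 1. The lowest library was not the same: it was library 2 for Zfp36, Btg2 and Tob2, and library 3 for Zfp36l2, Tob1 and Zc3h12a. Over all tested genes library 2 was the lowest for 30.7% and library 3 for 33.4%, so 3 of 8 each is near these shares. Among the 55 called genes, 36 had libraries 1 and 4 as the highest pair, or 0.291% of tested genes.

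The profile of each gene over the 4 libraries was set against that of 9616 other genes of at least 5 CPM, by the root mean square (RMS) difference of centred log2(CPM + 1). Among the 5 genes nearest to Zfp36 were Fkbp5, a cochaperone of steroid receptors (0.12), and Inmt, a methyltransferase (0.13). Fkbp5 had 79.0, 25.2, 50.5 and 81.8 CPM over the 4 libraries, and Inmt had 21.7, 8.12, 12.8 and 20.8 CPM. Like Zfp36, both were intermediate in library 3 and lowest in library 2. AI607873, named Ifi207 in GENCODE (0.13), and Tob2 at rank 5 (0.14) were also among them. With log2(CPM + 0.5) Tob2 was no longer among the 5 nearest, while among genes of at least 20 CPM it was. The median gene stood 0.66 from Zfp36.

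Closest to Btg2 were Bcl2l1, which protects cells from apoptosis (0.06), the kinase gene Map3k6 (0.07), Hsd11b1, which regenerates active glucocorticoid (0.08), the potassium channel gene Kcna5 (0.09) and Nppb, the B-type natriuretic peptide (0.09). Bcl2l1 had 90.8, 38.4, 39.3 and 88.1 CPM, with libraries 2 and 3 level as in Btg2. Tob2 was at rank 15 for Btg2 and Zfp36 at rank 33, at RMS differences of 0.15 and 0.22. For Zfp36 the other decay factors ran from 0.55 for Zc3h12a, at rank 843 of 9616, to 0.79 for Zfp36l1, at rank 9082. For Btg2 they ran from 0.44 for Zc3h12a and 0.45 for Zfp36l2, at ranks 461 and 539, to 0.69 for Zfp36l1, at rank 8871, beside 0.58 for the median gene. These distances over 4 libraries are descriptions and carry no test.

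**Figure D3:**
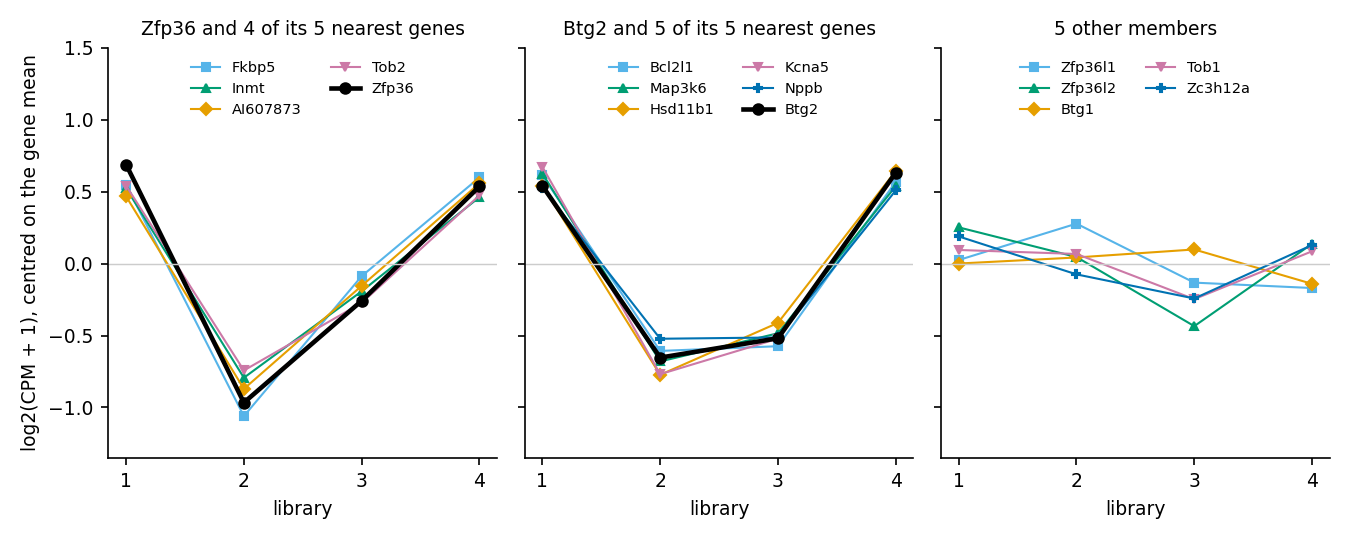
Profiles over libraries 1 to 4 (horizontal axis) as log2(CPM + 1) centred on the mean of each gene (vertical axis). Lines are genes: Zfp36 in black with 4 of its 5 nearest genes, Btg2 in black with its 5 nearest genes, and the 5 decay factors outside Zfp36, Btg2 and Tob2 in the right panel. In library 2 Zfp36 and Btg2 drop together with the genes drawn beside them, and the 5 other factors stay within 0.5 of their means.

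In the plot of profiles, library 3 lies above library 2 in Zfp36 and nearly level with it in Btg2. Since these 3 genes were high in the same libraries, their promoters are shown, as the 250 bases before the RefSeq start (GRCm38.p6), with a CArG box or a cAMP response element in capitals.
Zfp36, chr7:28379229-28379478, minus strand: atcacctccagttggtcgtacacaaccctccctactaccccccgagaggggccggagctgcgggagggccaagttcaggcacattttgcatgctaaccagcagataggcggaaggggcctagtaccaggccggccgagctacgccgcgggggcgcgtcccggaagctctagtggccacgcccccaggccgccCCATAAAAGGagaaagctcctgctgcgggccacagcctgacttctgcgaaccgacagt
Btg2, chr1:134079156-134079405, minus strand: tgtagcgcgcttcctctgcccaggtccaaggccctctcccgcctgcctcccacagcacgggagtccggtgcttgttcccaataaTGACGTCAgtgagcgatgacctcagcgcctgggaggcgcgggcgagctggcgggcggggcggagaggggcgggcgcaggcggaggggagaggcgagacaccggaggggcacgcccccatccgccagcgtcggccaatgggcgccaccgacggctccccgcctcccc
Tob2, chr15:81858327-81858576, minus strand: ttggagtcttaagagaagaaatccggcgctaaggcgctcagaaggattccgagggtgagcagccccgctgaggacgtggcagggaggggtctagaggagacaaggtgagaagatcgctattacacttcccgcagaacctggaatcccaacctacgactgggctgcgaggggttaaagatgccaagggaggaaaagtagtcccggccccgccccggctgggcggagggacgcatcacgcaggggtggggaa
Each window of 300 bases, from 250 before to 50 after the start, was searched on both strands for 5 motifs. Zfp36 had a CArG box, the word bound by serum response factor, 58 bases before its start, as had 1.63% of all 32851 mouse windows and 1.31% of the 12374 windows of tested genes. Btg2 had the cAMP response element TGACGTCA 166 bases before its start, as had 1.79% of all windows and 2.81% of the windows of tested genes. Tob2 held none of the 5 words. The TATA box TATAAA (13.6% of all windows and 7.31% of those of tested genes) was found in Zfp36l1, Btg1 and Tob1, and the AP-1 word TGANTCA (7.81% and 5.09%) in Zfp36l1. The E box CACGTG (7.15% and 9.84%) was in none of the 8 genes of the list that matched the promoter table, and no 2 of the searched words overlap in these windows. Letters in a window are a description and do not show that a factor was bound.

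The summed messages of the machinery that the decay factors recruit varied little between libraries. The sum of the 9 genes was 497, 298, 312 and 473 CPM in libraries 1 to 4, a mean of 395 ± 105 CPM (SD, n = 4), and includes Zfp36 and Btg2, chosen for their spread. Without those 2 genes it was 352, 245, 240.0 and 331 CPM. Tob2 alone gave 188, 76.7, 107 and 179.5 CPM of this, so the remaining split between libraries was largely that of Tob2. The 12 genes of the CCR4-NOT complex summed to 437, 437, 449 and 455 CPM, a mean of 444 ± 8.63 CPM. In edgeR 0 of 12 were called, against 0.445% of all tested genes. At an unadjusted p under 0.05, 0 of 12 passed, against 6.0%. Their median log2 variance ratio was 0.00, against 2.34 for the 8 tested decay factors, which the choice of Zfp36 and Btg2 raises, and −0.23 for all tested genes. The scaffold Cnot1 led at 140 ± 9.69 CPM, with Tnks1bp1 at 106 and Cnot3 at 42.7. The BTG/TOB-binding deadenylases were lower, Cnot8 at 27.9 ± 1.56 and Cnot7 at 11.3 ± 1.19 CPM (SD, n = 4 each).

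Decapping and 5′ decay genes summed to 592 ± 4.00 CPM, with 0 of 20 called (0 at an unadjusted p under 0.05, edgeR). Of all tested genes 0.445% were called and 6.0% passed unadjusted. Ddx6, a helicase of decay granules, led at 128 CPM, followed by the decapping scaffold Edc4 at 74.0 and Lsm14b at 70.5. Exosome and Ski genes summed to 307 ± 5.61 CPM with 0 of 17 called (0 unadjusted), led by Exosc10 at 63.9, Skiv2l at 48.8 and Dis3l at 40.2 CPM.

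Other deadenylation and poly(A)-binding genes had 0 of 13 called and 3 at an unadjusted p under 0.05 (edgeR), at a sum of 572 ± 29.6 CPM. Pabpc4 at 168, Pabpc1 at 129 and the nuclear Pabpn1 at 65.1 CPM led them. Ccrn4l, the nocturnin gene, was chosen after its values were seen: it had 534, 329, 275 and 560 counts, highest in libraries 1 and 4, and was not called (adjusted p = 0.450, edgeR). Of 15 other 3′ UTR binding protein genes 0 were called (0 unadjusted, edgeR), with Ybx1 at 665, Qk at 263 and Celf1 at 129 CPM. Among 21 kinases, phosphatases and ligases known to act on the decay factors, 0 were called and 3 passed unadjusted (edgeR). In all 6 of these machinery and regulator lists, limma and the dispersion outliers of DESeq2 likewise gave 0. Over all 12358 tested genes limma called 51 and DESeq2 set apart 129. In edgeR 0.445% of all tested genes were called and 6.0% passed unadjusted, so 0 calls in lists this short do not set them apart. Mapkapk2, the kinase that phosphorylates Zfp36, stood at 358 CPM, beside Ywhae at 365, a 14-3-3 protein gene, and Akt1 at 309.

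**Figure D4:**
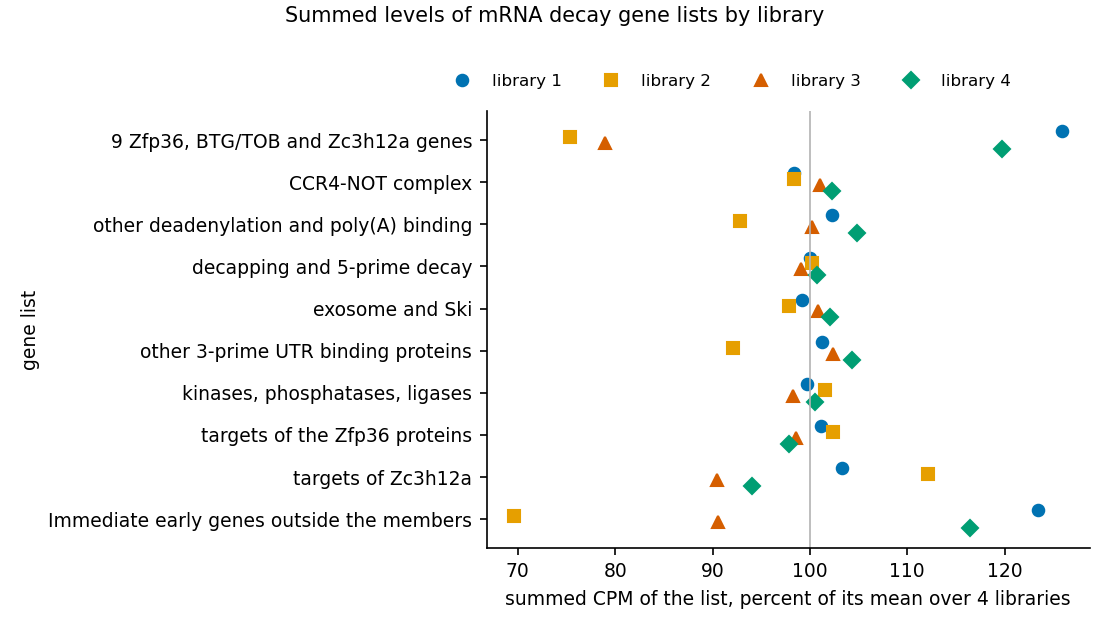
Summed CPM of each gene list in each library, as a percent of the list's mean over 4 libraries (horizontal axis), for the decay factors, their machinery, their targets and the immediate early genes (vertical axis). Markers are single libraries. The decay factor sums, which include Zfp36 and Btg2, chosen for their spread, run from 298 to 497 CPM, the immediate early gene sums from 368 to 651 CPM and the CCR4-NOT sums from 437 to 455 CPM.

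The plot of summed levels sets the known targets beside the factors. Of 29 messages known as targets of the Zfp36 proteins, 16 were abundant enough to test, and Il6, Il10, Il2 and Ifng had 0 counts in all 4 libraries. Tnf, the best known target, had 6, 12, 2 and 3 counts, too few for a comparison. Vegfa led at 310 ± 51.1 CPM, then Notch1 at 162 ± 6.94 and Pim3 at 95.3 ± 28.8 CPM (SD, n = 4 each). The list summed to 876 ± 18.6 CPM (SD, n = 4), a sum in which Vegfa, higher in libraries 2 and 3, and Pim3, higher in libraries 1 and 4, offset each other. The median log2 variance ratio of its tested genes was 1.90, against −0.23 for all tested genes.

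Fos was the 1 target of 16 called more variable (adjusted p = 0.0118, edgeR), against 0.445% of all tested genes. Unadjusted, 5 passed, against 6.0% of all tested genes. DESeq2 set apart 3 as dispersion outliers, against 129 of all 12358 tested genes. The highest pair was libraries 1 and 4 for 5 of the 16, against 23.7% of all tested genes. The Fos counts of 253, 33, 33 and 228 came to 17.6, 2.37, 3.14 and 14.8 CPM over the 4 libraries. Fos, which encodes an AP-1 subunit, was thus high in the same libraries as Zfp36. Pim3, another kinase gene, had 124, 73.2, 68.1 and 116 CPM, the same direction, and was not called (adjusted p = 0.0795, edgeR). Vegfa went the other way, at 266, 362, 347 and 267 CPM, and was not called (adjusted p = 0.392, edgeR).

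For Zc3h12a, 7 of 15 known targets were abundant enough to test, while Il6 and Il2 had 0 counts. In edgeR 0 of the 7 were called and 2 passed unadjusted, against 0.445% and 6.0% of all tested genes. Of the 7, limma called 0 and DESeq2 set apart 1, against 51 and 129 of all 12358 tested genes. Id1 led at 22.4 ± 4.72 CPM. Tfrc, the transferrin receptor, had 151, 360, 164 and 187 counts, highest in library 2, and was not called (adjusted p = 0.102, edgeR).

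Many immediate early genes outside the list were high in the same libraries as Zfp36, Btg2 and Tob2. Libraries 1 to 4 held 651, 368, 478 and 614 CPM of them in sum, and 3 of 17 tested were called (edgeR), against 0.445% of all tested genes. The called genes were Fos, Jun and Dusp1. Libraries 1 and 4 were the highest pair for 12 of the 17, against 23.7% of all tested genes. Jun had 86.5, 41.0, 40.8 and 80.5 CPM. Dusp1, a phosphatase that switches off the p38 pathway, had 136, 58.7, 81.0 and 139 CPM, the order of libraries 2 and 3 seen in Tob2. Cyr61, also a leading gene of this list, was outside the 12. Its levels were 83.5, 48.6, 80.9 and 76.8 CPM, with library 3 above library 4.

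Markers of the other cell types that the tissue could hold were summed in each library. The 10 macrophage markers summed to 390, 346, 346 and 395 CPM, and 7 of the 10 were highest in libraries 1 and 4, against 23.7% of all tested genes. Lymphocyte markers summed to 8.01 to 11.1 CPM with 2 of 9 tested, and neutrophil markers to 2.36 to 4.31 CPM, with Mpo and Elane at 0 counts. Endothelial markers summed to between 1656 and 1678 CPM. In edgeR and limma 0 markers of these types or of cardiomyocytes, fibroblasts, smooth muscle or pericytes were called. DESeq2 set apart 1, a macrophage marker, against 129 of all 12358 tested genes. Over the same genes edgeR called 0.445% and limma called 51. Unadjusted in edgeR, 2 of 10 macrophage, 2 of 10 endothelial, 2 of 8 fibroblast and 3 of 8 smooth muscle and pericyte markers passed, against 6.0% of all tested genes. Adipocyte markers, with Ucp1 at 0 counts, summed to 1.11 to 3.80 CPM. The part of macrophage content in the decay factor values was not tested.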

How the data were processed

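The deposited files hold raw read counts per gene, whole numbers the authors did not normalize. Per the submitters' processing notes, the build was mm10 and the tools named, without roles, were HTSeq, TopHat2 2.0.10, TopHat, Bowtie2, edgeR and DESeq. The annotation and the mode of counting were not given in the sources used here. The 5 rows that name no gene (8.96 to 9.30% of listed reads) were left out. CPM used each library's gene total. Per the labels' protocols, libraries were single-end and keep no strand. All 4 libraries form 1 group.

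Spread was tested with edgeR 4.0.16 in R 4.3.3: intercept only, trimmed mean of M-values (TMM) factors, trended dispersion, robust prior. The quasi-dispersion over its trend was set against an F distribution on 3 and 7.42 degrees of freedom, with Benjamini-Hochberg adjustment over 12358 genes of mean at least 1 CPM. The procedure was tested on simulated counts. Alternatives used DESeq2 1.42.0 and limma 3.58.1, other factors and filters, and fewer libraries. Transcripts and UTRs came from GENCODE M21, promoters from RefSeq, and copies from BLAST 2.17.0. By symbol, 23062 genes (98.5%) matched GENCODE. No protein sequences were used here. The genes, lists and motifs were chosen with earlier results of these data known. Genes named are the 9, their paralogs, up to 3 leading and 5 called genes per list, and the 5 nearest profiles to Zfp36 and Btg2; 1 gene under this rule is not reported here. No 2 libraries were duplicates. Chi-square per degree of freedom was lowest for libraries 1 and 4, at 2.22, and ran from 6.81 to 12.6 for the other pairs.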

Additional observations from a re-analysis of the deposited data

Results flagged for a closer look

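Of 30 sets of 4 values checked for a single library far from the rest, 3 were flagged, and about 1 in 20 such sets is flagged by chance. In library 3, Tob1 was at 37.0 CPM, while the others had 47.1, 46.2 and 46.8 CPM. The summed cardiomyocyte markers were at 117388 CPM in library 3, above 106948, 107024 and 106160 CPM in the other libraries. Myh6 alone made up most of that rise, with 47535, 48453, 56973 and 46667 CPM in libraries 1 to 4. Tnnt2 (10120, 9833, 10348 and 10329 CPM) and Atp2a2 (11050, 12143, 11760 and 11342 CPM) did not stand out in library 3. The summed fibroblast markers were at 892 CPM in library 3, below 987, 1006 and 988 CPM in libraries 1, 2 and 4. Col1a2 and Col3a1 were lowest in library 3, but Dcn was lowest in library 2 (180 CPM, against 246 CPM in library 3). Library 3 was thus the outlying library in each, and it was also the lowest library for Zfp36l2 and Zc3h12a. It was the lowest for 33.4% of all tested genes. The part of cell content in the low Tob1 value of library 3 was not tested.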

How the results depend on the processing

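The count of genes called more variable, 55, was 258 with no filter on low counts, 129 as dispersion outliers of DESeq2, 10 without a robust prior and 6 in libraries 1 and 4 alone, and it ran from 39 to 69 when 1 library was left out. Of the 7 factors not chosen for spread, 1 (Tob2) was called, also with any 1 library left out (1 to 1), but 0 were called in libraries 1 and 4 alone or when the prior was not robust. The variance ratio of Tob2, 46.1, was 1.34 in libraries 1 and 4 alone and 43.7 under the prior that was not robust, and its range with 1 library left out was 34.9 to 73.7. That of Zfp36 was 30.0 without library 2 and 83.1 without library 3. DESeq2 gave a different ratio, the dispersion of a gene over its fitted trend, of 30.2 for Zfp36 and 23.3 for Btg2. Of 8 genes ranked per kilobase, 3 kept their place when ranked per gene, 5 per longest transcript, 4 in libraries 1 and 4 alone, and 3 to 6 with 1 library left out. Leaving Rn45s out raised every detected factor, since each count was then divided by a smaller total. Zfp36 rose to 61.2, Tob2 to 158, Btg1 to 20.3 and Tob1 to 50.8 CPM, and for Btg1 and Tob1 alone the rise exceeded the SD. The cause of the other shifts was not tested, beyond the fewer samples and genes that some settings use. Without library 1 Tob1 and without library 4 Zfp36l1 came first in place of Tob2, and without either Btg1 was above Zc3h12a. The check of library order under other scaling factors was added after the data were seen; it left 6, 5 and 5 genes highest in libraries 1 and 4. No paired analysis was possible because the 4 libraries form a single group. With 4 libraries the exact permutation test cannot go below 0.125, and depth does not allow a comparison of Tnf or Btg3.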

Other observations

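Tob2, the decay factor called for its spread, had its own set of nearest profiles, looked up after its values were seen. Dusp1 was the nearest of 9616 genes (RMS difference 0.04), with 136, 58.7, 81.0 and 139 CPM in libraries 1 to 4 beside 188, 76.7, 107 and 179.5 CPM for Tob2. Inmt (0.05), the secreted guidance factor gene Slit3 (0.06), the arrestin-domain gene Arrdc2 (0.07) and Slc45a3 (0.09) followed. Slit3 had 28.4, 12.4, 16.5 and 28.3 CPM. Zfp36 was at rank 17 and Btg2 at rank 21 for Tob2, while Zfp36l1 was at rank 9046. Inmt was thus among the 5 nearest genes of both Zfp36 and Tob2.

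The ratio of Tob2 to Tob1 per kilobase was 1.37, 0.570, 0.989 and 1.32 in libraries 1 to 4, so that the more abundant TOB message differed between hearts. Divided by the longest transcript, Tob2 was the higher in 3 of 4 libraries.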
